A study of Mus musculus with 26 samples.

Results

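Genes of the fetal-like regenerative programme of the colonic epithelium were followed through AOM–DSS tumorigenesis in mice fed a standard diet or a diet with GW3965. The 7 genes, Ly6a, Clu, Anxa1, Il33, Msln, Il1rn and Sox9, were chosen by name and are 7 of the 35975 genes for which counts were summed. All 7 passed the filter on low counts and were among the 17063 genes tested. Every sample was colon of a wild-type C57BL/6J male mouse with a starting age of about 10 weeks. GW3965 is a synthetic agonist of the liver X receptors (LXR), the nuclear receptors for oxysterols. The treated mice received azoxymethane (AOM, 10 mg/kg), a carcinogen, and then dextran sulfate sodium (DSS), which injures the epithelium, for 7 days per cycle in a schedule of 3 cycles. By that schedule day 22 fell after the first cycle, day 43 after the second and day 70 after the third. Each diet had 3 samples at each of days 22, 43 and 70 after AOM. The day 0 groups had 4 samples per diet without AOM or DSS, of which 2 had 22 days and 2 had 43 days of the diet.

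By the labels, 1 cage per diet gave the samples of days 22 and 43, another cage per diet gave those of day 0, and each day 70 sample had its own, so diet and cage cannot be told apart at days 0, 22 and 43. No cage gave both treated and day 0 samples, so changes since day 0 cannot be told apart from differences between cages either. Whether a sample was 1 mouse or a pool of mice is not clear from the sources, so P values describe the spread between these samples. Total counts ranged from 18195345 to 41522204 per sample. Ribosomal protein genes took 3.96% to 6.66% of the counts at days 0 and 70, 6.06% to 10.7% at day 22 and 10.0% to 18.6% at day 43. Replicate 1 of the standard diet at day 43 had an RNA integrity number of 2.6 and the largest library. Replicate 4 of GW3965 at day 0 carries the standard diet in one of its labels and was placed by its title.

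When the intestinal lining is injured, part of the repairing epithelium sets aside the adult stem cell programme and expresses genes of the fetal intestine. Ly6a and Clu mark such cells, and the YAP–TEAD transcription complex is a known driver of this state. The genes are not private to epithelium. Ly6a is also made by endothelium and blood cells under interferon, Anxa1 and Il1rn are also abundant in neutrophils and in stratified squamous epithelium, and Msln is a marker of mesothelium. The tissue was sequenced in bulk, where fewer cells of a type and less RNA per cell cannot be told apart.

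The levels of the 7 genes were ordered by TPM, a unit that accounts for transcript length. In untreated colon on the standard diet Ly6a was at 496 ± 167 TPM (SD, n = 4) and Anxa1 at 254 ± 49.1 TPM. Clu (83.1 ± 39.2 TPM) and Il1rn (77.7 ± 20.7 TPM) followed and overlapped each other. Sox9 was at 13.5 ± 4.34 TPM, Il33 at 4.82 ± 1.14 TPM and Msln at 0.293 ± 0.255 TPM. At day 70 on the standard diet Anxa1 (1440 ± 296 TPM, n = 3) and Ly6a (1275 ± 321 TPM) were at the top with overlapping ranges. Msln remained the lowest at 5.47 ± 1.92 TPM. The values by sample given for each gene are CPM, TMM-normalized counts scaled to library size, the scale on which a gene is compared between samples.

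**Figure D1:**
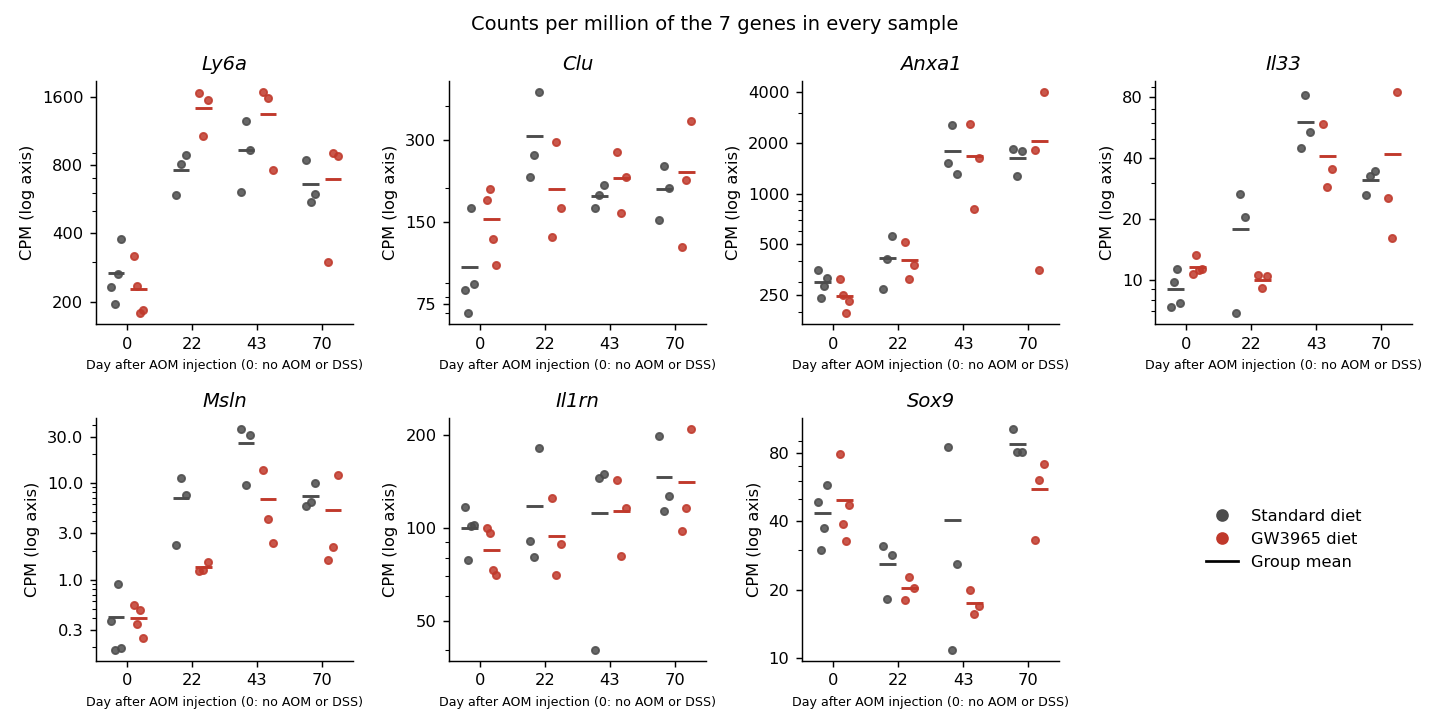
Levels of the 7 genes in all 26 samples, in CPM on a log axis, by day after AOM injection and diet. Points are samples and bars are group means. Ly6a was above its day 0 range in all 6 samples of day 22, Msln in all 18 treated samples, and Anxa1 at day 70 spanned 353 to 3999 CPM on GW3965. By day and diet, 26.9% to 57.4% of all genes did not overlap with day 0.

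Ly6a (ENSMUSG00000075602, chr15:74994877-74998031, minus strand, GRCm38) encodes Sca-1, a surface protein anchored by lipid. It was the only 1 of the 7 genes called at day 22 on both diets. In the day 0 samples it was at 195, 232, 265 and 377 CPM on the standard diet and at 178.5, 184, 234 and 318 CPM on GW3965. At day 22 the standard diet samples were at 592, 810 and 882 CPM. Samples of the GW3965 diet were at 1074, 1544 and 1655 CPM. The day 22 samples lay above all day 0 samples on both diets, where 26.9% (standard) and 48.2% (GW3965) of all genes did not overlap. The GW3965 samples of day 22 lay above those of the standard diet, where 23.6% of all genes did not overlap. This difference between the diets did not pass the test. The log2 fold change from day 0 to day 22 was 1.45 ± 0.37 (SE) on the standard diet (adjusted P = 0.0198, edgeR quasi-likelihood F-test) and 2.56 ± 0.39 on GW3965 (adjusted P = 0.000307). On the standard diet the call was lost without day 22 replicate 2 or 3 or day 0 replicate 1 or 2, with edgeR adjusted P between 0.053 and 0.0936 and log2 fold changes between 1.32 and 1.44. At day 43 Ly6a was at 607, 935 and 1245 CPM on the standard diet and at 757.5, 1585 and 1678 CPM on GW3965. At day 70 the values were 547, 595.5 and 841 CPM on the standard diet and the log2 fold change was 1.31 ± 0.36 (edgeR adjusted P = 0.00833, and 0.0601 without day 70 replicate 1). On GW3965 at day 70 they were 299.9, 873 and 904 CPM, a log2 fold change of 1.65 ± 0.37 (edgeR adjusted P = 0.00359). The lowest of these, replicate 1, lay inside the day 0 range.

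Interferon-stimulated genes were also high in the day 22 samples. As a measure for the counts below, edgeR called 7.73% of all genes at day 22 on the standard diet and 12.6% on GW3965. At day 70 on the standard diet it called 33.2%. The 10 genes of the interferon list (among them Isg15, Gbp3 and Cxcl9) summed to 154 to 196 TPM at day 0 on GW3965 and to 691 to 1220 TPM at day 22, when 10 of 10 rose. On the standard diet they summed to 137 to 381 TPM at day 0 and 391 to 633 TPM at day 22, when 5 of 10 rose. At day 70 on GW3965, replicate 2 had the highest Ly6a of its group (904 CPM) and the highest sum of the list (806 TPM), against 252 and 278 TPM in the other two. Replicate 3, with 278 TPM, had nearly as much Ly6a (873 CPM). On the standard diet at day 70, when Ly6a was called, 1 of the 10 genes rose and 1 fell. T cell markers moved as well, from 12.6 to 41.8 TPM summed over 7 genes in the day 0 samples to 74.6 to 152 TPM at day 22, with 5 of 7 higher on the standard diet and 7 of 7 on GW3965. Their part in the Ly6a result was not tested. Of the 14 other genes of the Ly6 family, which share sequence and can share reads, 3 rose at day 22 on the standard diet and 4 on GW3965. Ly6c1 was the gene whose centred log2 CPM over the 26 samples was nearest to that of Ly6a, with a root mean square difference of 0.35 against an SD of 1.06 for Ly6a itself. Psmb8, a subunit of the immunoproteasome, came next (0.43), followed by Slc25a31 (0.43). Slc25a31 was at 0.4655 TPM at most and was not among the 10 nearest with another prior count.

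Clu (ENSMUSG00000022037, chr14:65968483-65981547, plus strand, GRCm38) encodes clusterin, a secreted chaperone that marks the revival stem cells of injured crypts. It was at 69.8, 84.4, 88.9 and 169.7 CPM at day 0 on the standard diet, and at 219.9, 264 and 450.4 CPM at day 22. The groups did not overlap, as for 26.9% of all genes, and the log2 fold change was 1.59 ± 0.38 (edgeR adjusted P = 0.014). The call did not hold without day 22 replicate 3 (1.22, adjusted P = 0.113) or day 0 replicate 1 (1.51, adjusted P = 0.0502), both by edgeR. On GW3965 the day 0 samples were at 104 to 199 CPM and the day 22 samples at 132, 169 and 296 CPM with a log2 fold change of 0.37 ± 0.40 (edgeR adjusted P = 0.597). In day 70 samples Clu was at 153 to 240.3 CPM on the standard diet (log2 fold change 0.94 ± 0.37, edgeR adjusted P = 0.0555) and 121 to 352 CPM on GW3965 (0.58 ± 0.38, adjusted P = 0.293). The groups overlapped at day 70 on both diets. Tmem176a, Tpm4 and Kifc5b were the genes nearest to Clu across the samples, at root mean square differences of 0.46 to 0.47 log2 CPM against an SD of 0.63 for Clu, so the likeness was loose.

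Anxa1 (ENSMUSG00000024659, chr19:20373428-20390944, minus strand, GRCm38) encodes annexin A1, a phospholipid-binding protein that acts on formyl peptide receptors. Its levels were low at days 0 and 22 and high at days 43 and 70. At day 0 it was at 241, 283, 316 and 351 CPM on the standard diet and at 196, 232, 251 and 309.8 CPM on GW3965. At day 22 it was at 271 to 558 CPM on the standard diet and at 309.8 to 517 CPM on GW3965, with edgeR adjusted P of 0.541 and 0.288. At day 43 the standard diet samples were at 1311, 1525 and 2541 CPM and the GW3965 samples at 811, 1623 and 2581 CPM. At day 70 the standard diet samples were at 1271, 1782 and 1835 CPM and the GW3965 samples at 353, 1816 and 3999 CPM. All 12 samples of days 43 and 70 were above every day 0 sample, though replicate 2 of GW3965 at day 70 was so by little. Of all genes, 48.4% and 43.1% did not overlap with day 0 at days 43 and 70 on the standard diet. On GW3965 the shares were 57.4% and 31.3%. The change from day 0 to day 70 was 2.47 ± 0.49 in log2 on the standard diet (edgeR adjusted P = 0.00109) and 2.96 ± 0.51 on GW3965 (edgeR adjusted P = 0.000534). Without replicate 3 of GW3965 at day 70, the latter was 1.86 (edgeR adjusted P = 0.00944). At day 43 the log2 fold change on GW3965 was 3.40 ± 0.78 (edgeR adjusted P = 0.0392), which did not hold when any of the 7 samples was left out (2.90 to 3.81, adjusted P 0.0595 to 0.143).

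Il33 (ENSMUSG00000024810, chr19:29925114-29960718, plus strand, GRCm38) encodes interleukin-33, a nuclear alarmin released from damaged cells that signals through the receptor ST2. At day 0 its level was 7.39 to 11.3 CPM on the standard diet and 10.7 to 13.3 CPM on GW3965. At day 22 it was at 6.88, 20.4 and 26.6 CPM on the standard diet and at 9.17, 10.4 and 10.6 CPM on GW3965. Neither change since day 0 passed the test, with 0.90 ± 0.46 in log2 for the standard diet (edgeR adjusted P = 0.2785). For GW3965 it was -0.31 ± 0.47 (edgeR adjusted P = 0.7245). The GW3965 samples lay below all day 0 samples of that diet by little, 10.59 against 10.71 CPM at the nearest. In that comparison 48.2% of all genes did not overlap. At day 43 Il33 was at 44.9, 53.6 and 81.6 CPM on the standard diet and at 28.7, 35.4 and 58.8 CPM on GW3965. At day 70 it was at 26.3, 32.7 and 34.4 CPM on the standard diet, and the log2 fold change was 1.77 ± 0.44 (edgeR adjusted P = 0.00442). On GW3965 it was at 16.1, 25.3 and 84.8 CPM, a log2 fold change of 1.90 ± 0.44 (edgeR adjusted P = 0.00487). This second call rested on replicate 3, without which the value was 0.83 (edgeR adjusted P = 0.159).

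The Il33 transcripts of the files begin at 2 main start sites, and the share of each start varied between the groups. A further transcript, Il33-203, begins at chr19:29951816, reached at most 0.387 TPM and was left out of the shares. The upstream start (chr19:29925114) gives mainly the transcript Il33-202, and the downstream start (chr19:29945790) gives Il33-201. At day 0 the downstream start was listed at 0 TPM in 5 of 8 samples and at 0.185, 0.304 and 0.719 TPM in the others. At day 70 on the standard diet it was at 8.31, 12.3 and 12.5 TPM, beside 9.26, 4.31 and 5.97 TPM from the upstream start in the same samples. The downstream share was 0.715% ± 1.43 (SD, n = 4) at day 0 and 63.0% ± 14 (n = 3), and no sample overlapped (exact permutation test, two-sided P = 0.0571, the smallest that 3 samples against 4 allow, adjusted P = 0.163 over 20 tests). With GW3965 the share was 3.71% ± 4.51 in untreated colon and 6.67% ± 5.94, 56.8% ± 40.5 and 42.7% ± 26.7 at days 22, 43 and 70. At day 43 on the standard diet most Il33 TPM came from the upstream start, which was at 10.2, 10.7 and 15.2 TPM beside 1.1, 1.2 and 6.61 TPM downstream. Single samples set the wide spread on GW3965: at day 43 the downstream start was at 0.702 TPM in replicate 2 and 14.3 and 9.81 TPM in the others, and at day 70 it was at 1.30 TPM in replicate 2 and 7.45 and 31.2 TPM in the others. Between the diets the share did not overlap at day 22, with 28.2% ± 9.7 on the standard diet and 6.67% on GW3965 (exact permutation test, two-sided P = 0.1, adjusted P = 0.25). That P is the smallest that 3 samples against 3 allow, so the test could not pass at days 22, 43 or 70. The shares of the diets overlapped at days 0, 43 and 70. This measure was chosen after the transcript values had been seen. The files hold no error for the division of reads between transcripts.

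The 250 bases before each start of Il33 are shown because the share of the starts varied, with the window of Anxa1, which had high levels in the same samples. The sequences are from RefSeq (GRCm38.p6), 5′ to 3′ on the strand of the gene. Capitals mark 2 motifs, each searched on either strand. One is GGAATG, which TEAD factors bind. The other is TATAAA, the TATA box. The windows are chr19:29924863-29925112 (plus), chr19:29945540-29945789 (plus) and chr19:20390672-20390921 (minus).
Il33 upstream start: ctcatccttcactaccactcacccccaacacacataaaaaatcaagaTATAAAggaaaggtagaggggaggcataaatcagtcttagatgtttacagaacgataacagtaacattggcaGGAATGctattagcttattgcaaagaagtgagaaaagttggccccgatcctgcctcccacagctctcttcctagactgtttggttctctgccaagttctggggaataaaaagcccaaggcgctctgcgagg
Il33 downstream start: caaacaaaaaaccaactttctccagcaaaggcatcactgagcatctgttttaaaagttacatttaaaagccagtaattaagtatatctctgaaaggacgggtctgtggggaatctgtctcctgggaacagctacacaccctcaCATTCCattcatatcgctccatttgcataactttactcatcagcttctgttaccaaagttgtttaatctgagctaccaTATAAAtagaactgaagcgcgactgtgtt
Anxa1 start: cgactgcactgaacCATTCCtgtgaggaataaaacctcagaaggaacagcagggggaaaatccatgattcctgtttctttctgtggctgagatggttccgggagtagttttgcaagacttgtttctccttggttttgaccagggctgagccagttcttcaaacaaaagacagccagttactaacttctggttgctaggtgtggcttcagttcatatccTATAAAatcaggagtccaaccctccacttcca
Each of the 3 windows held 1 TEAD motif and 1 TATA box. The TATA box began 29 bases before the downstream Il33 start, 32 bases before the Anxa1 start and 203 bases before the upstream Il33 start. The TEAD motif began 107, 236 and 131 bases before these starts, in the same order, all counted from the RefSeq starts. The Anxa1 window lies inside Anxa1-201, the transcript with most of the Anxa1 TPM, which is annotated to begin at chr19:20390944. Of 32841 promoter windows of the same length, 12.6% held GGAATG and 12.4% held TATAAA. The letters TGANTCA (AP-1), found in 6.75% of all windows, and TTCNNNGAA (GAS, an interferon response element), found in 7.02%, were not in these windows. The motifs searched did not overlap in any of them. Of the 7 genes, Il33, Il1rn and Anxa1 had a window in the table used. The 3 windows of Il1rn held 1 TEAD motif, 1 AP-1 motif and no TATA box in all. The matches describe the sequence and do not show binding.

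**Figure D2:**
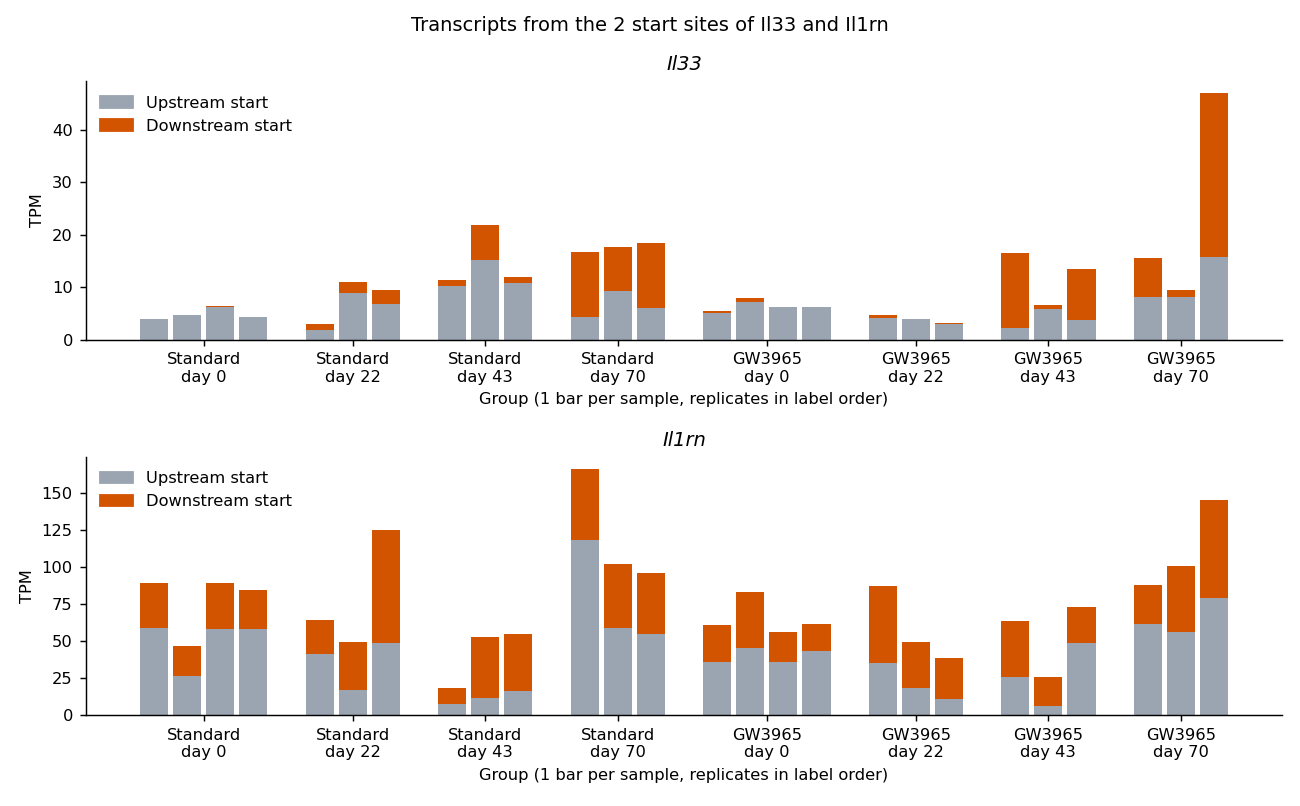
TPM from the upstream and downstream start sites of Il33 and Il1rn, with 1 stacked bar per sample in the order of the replicate numbers within each group. The downstream start of Il33 was at 0 to 0.719 TPM in the 8 samples of day 0 and at 8.31 to 12.5 TPM at day 70 on the standard diet.

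Stratified epithelium markers were described beside Anxa1 and the downstream start of Il33, and their likeness was not tested. Krt5, Krt14, Krt13, Krt6a, Trp63, Dsg3, Ivl and Sprr1a are markers of squamous epithelium, which lines the anus next to the distal colon. Their 8 levels summed to 2.85 to 20.8 TPM at day 0, 25.4 to 85.5 TPM at day 22, 204 to 730.3 TPM at day 43 on the standard diet and 2531 to 3414 TPM at day 70 on the standard diet. All 8 rose at day 70 on both diets, where 33.2% (standard) and 21.8% (GW3965) of all genes were called. At day 43 on GW3965, 7 of 8 rose, where 0.938% of all genes were called. At day 22, 0 of 8 rose on the standard diet and 1 of 8 on GW3965, where 7.73% and 12.6% of all genes were called. On GW3965 the median of Sprr1a was 4.46 TPM at day 0 and 59.4 TPM at day 22, most of the sum. The median of Krt14 was 2.01 TPM and then 1.335 TPM. On GW3965 the samples were uneven, with 996, 72.2 and 2343 TPM for replicates 1 to 3 at day 43 and 12530, 44.6 and 10370 TPM at day 70. Replicate 2 at day 70, where the sum was 44.6 TPM, had 353 CPM of Anxa1, and replicate 2 at day 43 had 811 CPM, the lowest of its group. The downstream start of Il33 was lowest in replicate 2 as well, at 1.30 TPM at day 70 and 0.702 TPM at day 43. Replicate 1 at day 70, with the highest sum, had 7.45 TPM from that start, below the 8.31 to 12.5 TPM of the standard diet at day 70. Ivl was at 0 in 15 of the 26 samples and Krt6a in 9. Neutrophil markers (7 genes, among them S100a8, Csf3r and Cxcr2) summed to 3.06 to 23 TPM at day 0 and rose in 7 of 7 genes at day 70 on both diets. They also rose at day 22, in 7 of 7 genes on the standard diet and 6 of 7 on GW3965, with sums of 102.7 to 1875 TPM and 267.5 to 971.8 TPM, when Anxa1 was not called and Ly6a, Clu and Msln were called on the standard diet. Their highest sum, 28820 TPM, was in replicate 2 of the standard diet at day 43, which also had the highest Anxa1 of its group. At day 70 on GW3965 their sum was lowest in replicate 2 as well, at 628.7 TPM beside 5243 and 5183 TPM in replicates 1 and 3. The part of either cell type in the changes of the 7 genes was not tested.

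**Figure D3:**
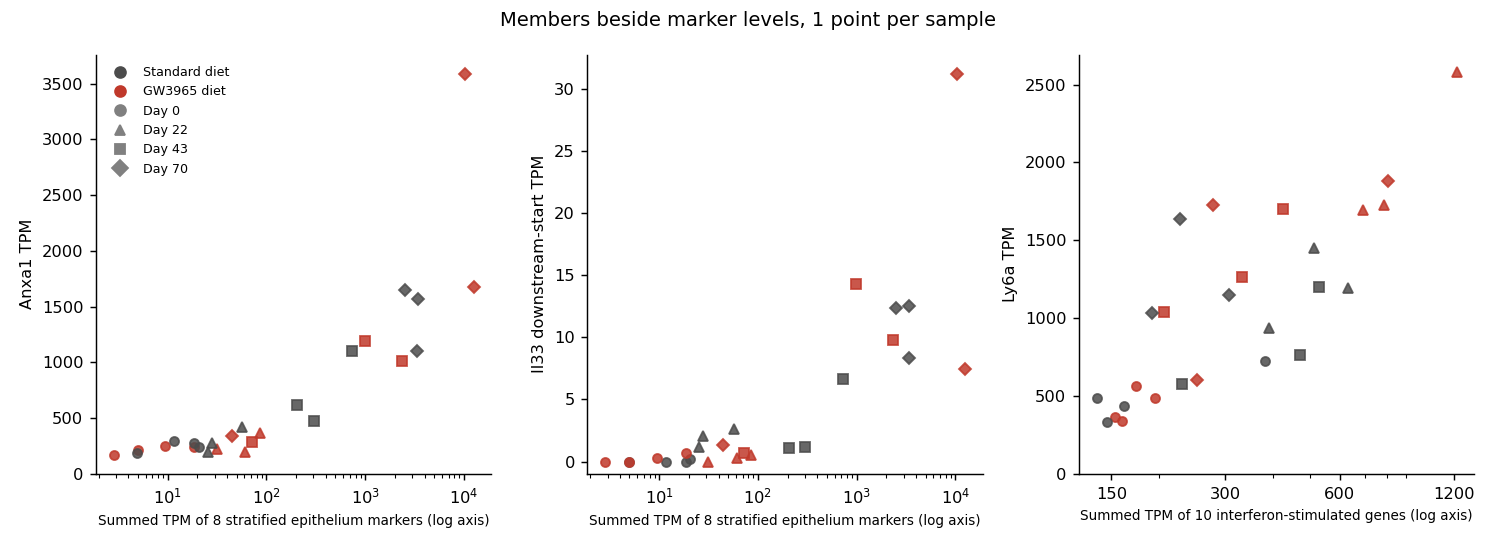
Anxa1 and the downstream start of Il33, in TPM, against the summed TPM of 8 stratified epithelium markers, and Ly6a against that of 10 interferon-stimulated genes, with log x axes. Points are samples, coloured by diet and shaped by day; the 3 GW3965 samples of day 70 sit at 44.6, 10370 and 12530 TPM on the stratified axis.

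Msln (ENSMUSG00000063011, chr17:25748613-25754378, minus strand, GRCm38) encodes mesothelin, a surface protein that binds the mucin Muc16. It was nearly silent in untreated colon, at 0.189 to 0.894 CPM on the standard diet and 0.248 to 0.54 CPM on GW3965. At day 22 it was at 2.26, 7.44 and 11.3 CPM on the standard diet, and the log2 fold change was 3.51 ± 0.73 (edgeR adjusted P = 0.00675). The GW3965 samples were at 1.23, 1.27 and 1.54 CPM, above every day 0 sample but with a log2 fold change of 1.10 ± 0.75 (edgeR adjusted P = 0.379). In that comparison 48.2% of all genes did not overlap. At day 43 it reached 9.47, 31.2 and 36.3 CPM on the standard diet and 2.40, 4.26 and 13.6 CPM on GW3965. The highest value was from the sample with the RNA integrity number of 2.6. At day 70 it was at 5.73, 6.40 and 9.89 CPM on the standard diet (log2 fold change 4.09 ± 0.70, edgeR adjusted P = 0.000363) and at 1.59, 2.17 and 12.1 CPM on GW3965 (3.98 ± 0.72, edgeR adjusted P = 0.000758). Without replicate 3 at day 70 the GW3965 value was 2.65, and without replicate 3 of the standard diet at day 0 the day 22 and day 70 values were 4.13 and 4.67, with the calls kept. The 7 mesothelium markers (among them Upk3b, Wt1 and Lrrn4) summed to 1.84 to 8.5 TPM over all samples. Of the 5 tested, 1 was higher at day 22 on the standard diet (7.73% of all genes called). At day 70 it was 1 on each diet, where 33.2% and 21.8% of all genes were called. Upk3b was at 0 in 9 samples and Lrrn4 and Wt1 did not pass the filter on low counts. The genes nearest to Msln were Mmp9, a neutrophil gelatinase, Tnfrsf11b and Timp1, at root mean square differences of 0.82 to 0.9 log2 CPM against an SD of 2.10.

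Il1rn (ENSMUSG00000026981, chr2:24336853-24351494, plus strand, GRCm38) encodes the antagonist of the interleukin-1 receptor. No change of its level passed the test in any comparison. Its group means lay between 84.8 ± 15.3 CPM (GW3965, day 0, n = 4) and 145.8 ± 45.5 CPM (standard diet, day 70, n = 3). The single samples ran from 40.2 CPM, in the sample with the RNA integrity number of 2.6, to 209 CPM. The day 70 log2 fold changes were 0.55 ± 0.37 on the standard diet and 0.65 ± 0.38 on GW3965 (edgeR adjusted P = 0.271 and 0.235). The transcripts of Il1rn also come from 2 starts. The downstream share of its TPM on the standard diet was 36.0% ± 5.22 in untreated colon, then 53.9% ± 16.2, 69.6% ± 9.02 and 38.1% ± 7.89 at days 22, 43 and 70. On GW3965 it was 37.8% ± 6.93, 64.7% ± 5.67, 56.4% ± 21.7 and 39.95% ± 8.68 at the same days. The samples did not overlap with day 0 at day 43 on the standard diet and at day 22 on GW3965 (exact permutation test, two-sided P = 0.0571 for each, adjusted P = 0.163). Cfl1, R3hdm4 and Ehd1 were nearest to Il1rn, at 0.31 to 0.32 log2 CPM against an SD of 0.52.

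Sox9 (ENSMUSG00000000567, chr11:112782224-112787760, plus strand, GRCm38) encodes a transcription factor of the crypt base. It was the only 1 of the 7 genes with lower mean levels at day 22 than at day 0 on both diets. It was at 30.03, 37.4, 48.7 and 57.7 CPM at day 0 on the standard diet and at 18.2, 28.5 and 31.3 CPM at day 22. On GW3965 it was at 32.9, 39.0, 47.2 and 79.4 CPM at day 0 and at 18.1, 20.3 and 22.7 CPM at day 22. At day 43 it was at 15.7, 16.9 and 19.98 CPM. Neither day overlapped with day 0, as for 48.2% and 57.4% of all genes. On the standard diet at day 43 it was at 10.9, 26.1 and 85.3 CPM, the highest in the sample with the RNA integrity number of 2.6. The change there was 0.09 ± 1.05 in log2, and -1.76 with the RNA integrity number as covariate (edgeR adjusted P = 0.0176). The GW3965 log2 fold changes were -1.25 ± 0.51 at day 22 (edgeR adjusted P = 0.114) and -1.38 ± 0.81 at day 43 (edgeR adjusted P = 0.487), so neither passed. Without the ribosomal term they passed, at -1.28 (edgeR adjusted P = 0.0494) and -1.50 (edgeR adjusted P = 0.0116). At day 70 Sox9 was at 80.8, 81 and 102 CPM on the standard diet, above every day 0 sample (log2 fold change 1.02 ± 0.45, edgeR adjusted P = 0.0844). There 43.1% of all genes did not overlap with day 0. The GW3965 samples were at 33.2, 61.1 and 71.8 CPM (0.14 ± 0.46, edgeR adjusted P = 0.864). The values of the diets did not overlap at day 70, as for 19.1% of all genes, and the difference of -0.69 ± 0.49 did not pass the test (edgeR adjusted P = 0.464). Ets2, Foxa1 and Ppip5k2 were nearest, at 0.29 to 0.35 log2 CPM against an SD of 0.89.

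The calls were counted over the 7 genes with the ribosomal percentage in the model. On the standard diet edgeR called 3 of 7 higher at day 22 (Ly6a, Clu and Msln) where it called 7.73% of all genes in either direction, and 4 of 7 higher at day 70 (Ly6a, Anxa1, Il33 and Msln) where it called 33.2% of all genes. On GW3965 it called 1 of 7 at day 22 (Ly6a; 12.6% of all genes), 1 of 7 at day 43 (Anxa1; 0.938%) and 4 of 7 at day 70 (Ly6a, Anxa1, Il33 and Msln; 21.8%). The median log2 fold change of the 7 genes at day 70 was 1.31 on the standard diet and 1.65 on GW3965, beside 0.035 and 0.1 for all genes. The 2 day 70 comparisons have separate day 0 samples. None of the 7 genes was called lower. The samples did not overlap with day 0 for 3, 4 and 5 of the 7 genes at days 22, 43 and 70 on the standard diet, as for 26.9%, 48.4% and 43.1% of all genes. On GW3965 this held for 5, 5 and 3 of 7, and for 48.2%, 57.4% and 31.3% of all genes.

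**Figure D4:**
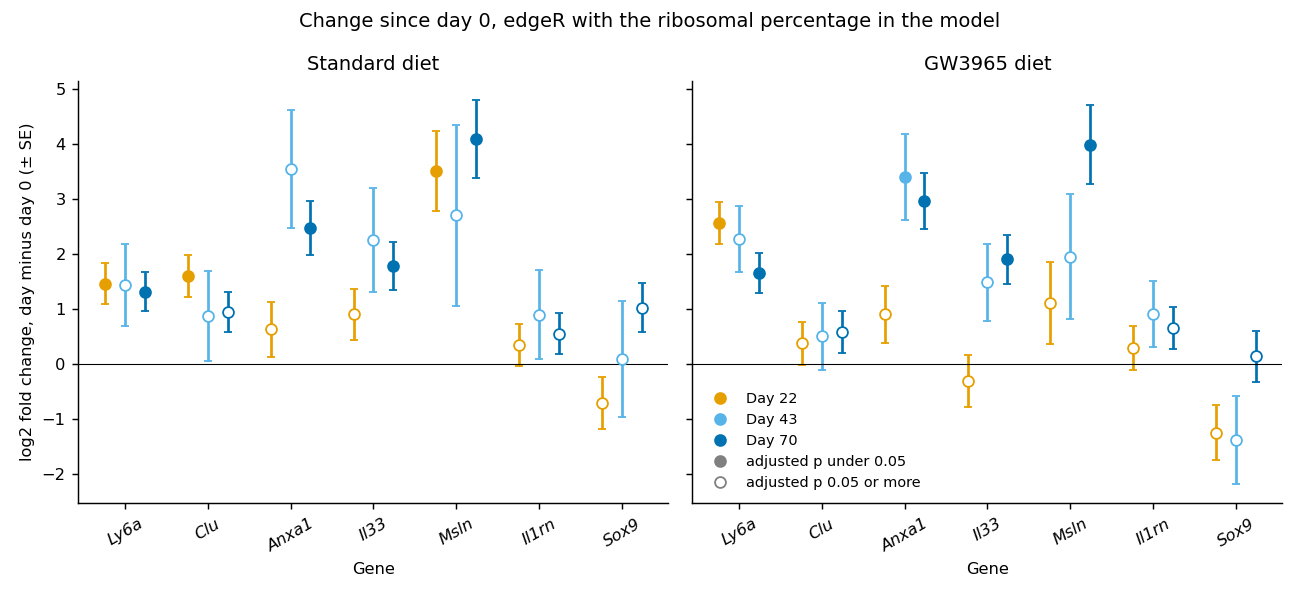
Log2 fold changes of the 7 genes from day 0 to days 22, 43 and 70 by diet, with the ribosomal percentage in the model. Points are estimates, bars are standard errors and filled points have an adjusted P under 0.05; the bars of day 43 are the longest, with standard errors of 0.75 to 1.65 on the standard diet.

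At day 43 the result depended on the ribosomal term of the model. Every day 43 sample had a higher ribosomal percentage than the day 0 samples, and the standard errors of the 7 genes were 0.75 to 1.65 on the standard diet at day 43 against 0.36 to 0.7 at day 70. With the term, edgeR called 0 of 7 at day 43 on the standard diet (2 at an unadjusted P under 0.05 and 1 by DESeq2) and 0% of all genes. Without the term it called 5 of 7 higher on the standard diet (Ly6a, Clu, Anxa1, Il33 and Msln), where it called 55.1% of all genes. The log2 fold changes were then 1.80, 0.86, 2.59, 2.73 and 5.92. On GW3965 it called Ly6a, Anxa1, Il33 and Msln higher and Sox9 lower without the term, with 45.3% of all genes called. The ribosomal percentage and day 43 cannot be told apart in these samples.

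From 1 timepoint to the next, no change of the 7 genes passed the test. EdgeR called 0 of 7 from day 22 to 43 on the standard diet (0% of all genes), with 1 at an unadjusted P under 0.05 (Anxa1) and 0 by DESeq2. It called 0 of 7 from day 22 to 43 on GW3965 (0.147% of all genes), with 2 at an unadjusted P under 0.05 (Anxa1 and Il33) and 1 by DESeq2. From day 43 to 70 it called 0 of 7 on each diet (0% and 0% of all genes), with 0 at an unadjusted P under 0.05. DESeq2 called 0 of 7 on the standard diet and 0 of the 4 genes for which it gave an adjusted P on GW3965, which left out Il33, Msln and Sox9. Il33 alone did not overlap between days 43 and 70 on the standard diet, with 26.3 to 34.4 CPM at day 70 below 44.9 to 81.6 CPM at day 43, and Sox9 alone on GW3965, with 33.2 to 71.8 CPM above 15.7 to 19.98 CPM. Of all genes, 48.8% and 43.8% did not overlap in these comparisons.

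The comparison of the diets asks whether activation of LXR changes the programme. No difference between GW3965 and the standard diet passed the test for any of the 7 genes. At day 0 edgeR called 0 of 7 (0.0293% of all genes), with 0 at an unadjusted P under 0.05 and 0 by DESeq2, and the log2 differences, GW3965 minus standard, ran from -0.24 (Anxa1) to 0.58 (Clu). At day 22 it called 0 of 7 (0.135% of all genes), with 2 at an unadjusted P under 0.05. These were Msln, lower on GW3965 by 2.48 ± 0.72 in log2 (-2.48, edgeR adjusted P = 0.166), and Ly6a, higher by 0.87 ± 0.39 (edgeR adjusted P = 0.451). Neither gene overlapped between the diets at day 22, as was so for 23.6% of all genes, and DESeq2 called 1 of 7, Msln. At day 43 edgeR called 0 of 7 (0.0293%), with 1 at an unadjusted P under 0.05 (Sox9, -1.27 ± 0.58) and 0 by DESeq2. The standard diet samples were then at 10.9, 26.1 and 85.3 CPM of Sox9, the highest in the sample with the RNA integrity number of 2.6. These values lay on both sides of the GW3965 samples, and with single samples left out the difference ran from -1.94 to -0.06. At day 70 edgeR called 0 of 7 (1.83%), with 0 at an unadjusted P under 0.05 and 0 by DESeq2. The log2 differences ran from -0.69 ± 0.49 (Sox9) to 0.48 ± 0.47 (Il33). The change since day 0 on GW3965 was also compared with that on the standard diet as an interaction. EdgeR called 0 of 7 at days 22 (0.0234% of all genes), 43 (0%) and 70 (0%), with 3, 0 and 0 at an unadjusted P under 0.05 and 0 by DESeq2 at each day. The 3 at day 22 were Ly6a (1.11 ± 0.51), Clu (-1.22 ± 0.53) and Msln (-2.40 ± 1.00).

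Other genes of the fetal-like programme were described with the same model. Of the 18 tested of a list of 19, 12 rose on the standard diet and 8 on GW3965 at day 70, with 0 lower on either. Of all genes, 33.2% and 21.8% were called in either direction. The median log2 fold changes of the list were 1.51 and 1.28. Its summed TPM was uneven on GW3965 at day 70, at 3189, 3253 and 7790 TPM beside 4125 to 4973 TPM at day 0. On the standard diet it was 5856 to 7533 TPM beside 4536 to 5292 TPM. S100a6 alone ran from 1090 to 6830 TPM over the samples. At day 22, 2 of the 18 rose on the standard diet and 1 on GW3965, where 7.73% and 12.6% of all genes were called. Spp1 (osteopontin), Gja1 (connexin 43) and Ckap4 rose at day 70 on both diets, with log2 fold changes on the standard diet of 6.81 ± 1.03, 1.67 ± 0.46 and 1.78 ± 0.28. Of 14 YAP–TEAD genes and targets, 2 rose (Ajuba and F3) and 2 fell on the standard diet at day 70, and 2 rose (Ajuba and Amotl2) on GW3965, no larger shares than the 33.2% and 21.8% of all genes called. Ajuba, which encodes a LIM protein of the Hippo pathway, rose by 3.37 ± 0.50 and 3.61 ± 0.51 in log2. Ccn1 was the 1 gene of this list that rose at day 22 on the standard diet, and Crim1 the 1 that fell on GW3965 (-1.44 ± 0.30).

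A list of 11 genes held receptors and binding partners of the 7 gene products and the interleukin-1 genes Il1a and Il1b. Of these, 9 rose on the standard diet and 8 on GW3965 at day 70, where 33.2% and 21.8% of all genes were called. At day 22, 6 rose on each diet, where 7.73% and 12.6% were called. Il1rl1, which encodes the IL-33 receptor ST2, was at 0.636 to 6.99 TPM at day 0 and 49.1 to 73.4 TPM at day 70 on the standard diet (log2 fold change 4.27 ± 0.82, edgeR adjusted P = 0.00081). With GW3965 its level was 0.373 to 1.27 TPM and then 2.98, 8.23 and 37.8 TPM (4.35 ± 0.85, edgeR adjusted P = 0.00149). The diets did not overlap at day 70, where 19.1% of all genes did not overlap in CPM. The difference of -1.82 ± 0.83 did not pass the test (edgeR adjusted P = 0.243). Il1r2, the decoy receptor for interleukin-1, and Il1b rose at days 22 and 70, with Il1r2 at log2 fold changes of 5.36 ± 0.74 and 4.16 ± 0.71 on the standard diet. Fpr1, a receptor for annexin A1 that neutrophils carry, was at 0 in 3 of the 4 day 0 samples on GW3965 and at 1.33 to 3.67 TPM at day 70. Lrp8, a receptor for clusterin, rose by 2.50 ± 0.46 on the standard diet and by 2.46 ± 0.48 on GW3965.

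In the Ly6 family, 7 of the 14 other genes rose and 1 fell at day 70 on the standard diet (33.2% of all genes called), and 8 rose and 1 fell on GW3965 (21.8%). Ly6d was at 8.87 to 56.7 TPM at day 0 and 301 to 601 TPM at day 70 on the standard diet, and at 87.3 to 1262 TPM on GW3965. Psca was listed at 0 in all 4 day 0 samples on GW3965 and at 0.4, 293 and 688 TPM at day 70. Adult stem cell and colonocyte genes moved in both directions at day 70 on the standard diet, 4 higher and 4 lower of 10, and 0 higher and 3 lower on GW3965, beside the same shares of all genes. The colonocyte genes Car1 (-3.73 ± 0.53) and Slc26a3 (-5.27 ± 0.82) fell on the standard diet, and both also fell on GW3965.

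Among the cell type lists at day 70, again beside 33.2% and 21.8% of all genes called, 1 of 7 epithelium markers rose on the standard diet and 0 on GW3965, and 6 of 6 smooth muscle markers fell on the standard diet and 2 of 6 on GW3965. Of 6 endothelium markers 0 and 2 rose on the standard diet and GW3965, of 6 fibroblast markers 1 and 2 rose (2 and 0 fell), and of 6 macrophage markers 0 and 1 rose (1 and 0 fell). T cell markers rose in 0 of 7 and 5 of 7, and interferon-stimulated genes in 1 of 10 (1 fell) and 7 of 10 (0 fell). The epithelium markers, among them Epcam and Cdh1, were present in every group, with sums of 2080 to 13320 TPM.

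S100a11 was the gene nearest to Il33 (root mean square difference 0.47 log2 CPM) and the next to nearest to Anxa1 (0.49), after Urah (0.43), but it was not among the 10 nearest to Anxa1 after correction for the ribosomal percentage. Snai3 was the third for Anxa1 (0.51), and Tspan6 and Fxyd3 (both 0.5) followed for Il33. The SDs of Anxa1 and Il33 over the samples were 1.34 and 1.10 log2 CPM.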

How the data were processed

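Bulk RNA-seq of 26 mouse colon samples was analysed. For every transcript of the GRCm38 cDNA, the authors deposited the estimated count from Kallisto, which need not be whole. The deposited TPM values were made by Kallisto from the same estimates, and no normalization between samples was applied. The submitters' processing notes name kallisto and GRCm38, and the version is not given in the sources used here. Of 119414 transcripts, 116728 (97.8%) matched the GENCODE annotation (GRCm38), and 0.615% to 0.999% of the counts per sample were unmatched. Counts were summed by gene and rounded, and no samples held identical values. Totals of 18195345 to 41522204 counts per sample set the precision.

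Genes were filtered with filterByExpr (17063 kept), normalized by TMM and tested with edgeR 4.0.16 (R 4.3.3, quasi-likelihood F-test, 17 residual degrees of freedom) in a model of the 8 groups and the centred percentage of counts on 88 ribosomal protein genes, over 17 contrasts, with Benjamini-Hochberg adjusted P under 0.05 as the threshold. The standard error is the size of the log2 fold change divided by the root of F. DESeq2 1.42.0, other models, normalization, filters, a replicate block and the omission of each sample were tried as alternatives. Start site shares used TPM, with exact permutation tests (scipy 1.17.1). Likeness of genes was the root mean square difference of centred log2 CPM with a prior count of 2, and the 3 nearest genes were named. From each of the lists (other fetal-like, YAP–TEAD, partner, Ly6 family, stem cell and colonocyte, and interferon-stimulated genes), up to 3 genes past the threshold per contrast were named by smallest P, with their values in other contrasts. Some genes that this rule names are not reported here. Psca and Ly6d were named by this rule. Lists of 9 cell types (epithelium, stratified epithelium, mesothelium, endothelium, fibroblast, smooth muscle, neutrophil, macrophage and T cell) were described by counts and summed TPM. Several markers were named as examples of their list. The 7 genes and all lists were chosen with earlier results of these data known. The fit was tested on simulated data.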

Additional observations from a re-analysis of the deposited data

Results flagged for a closer look

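In the 18 sets of 4 untreated samples checked for a value far from the others (the levels of the 7 genes and the downstream start shares of Il33 and Il1rn, by diet), 1 stood apart. Replicate 3 of the standard diet at day 0 had 2.86% of its Il33 TPM from the downstream start, where the other 3 samples of its group had 0%. About 1 in 20 such sets is marked by chance, and the share rests on 8.26 estimated counts. No difference between the diets in the change since day 0 passed the test for any of the 7 genes.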

How the results depend on the processing

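The 7 genes in 17 contrasts gave 119 values, each recomputed under 8 other settings and with each sample of the contrast left out. Of 1890 alternative values, 1814 kept their direction and side of the threshold or stayed uncalled (among them 3 for which DESeq2 gave no adjusted P), 56 passed the threshold only in the alternative, 17 lost it and 3 reversed with a call. In 126 the sign differed, none of them among values called in the main model. The reversed values were Sox9 at day 43 against day 0 on the standard diet with the RNA integrity number as covariate (-1.76) and Msln from day 43 to 70 on the standard diet without the ribosomal term (-1.80) and with only the groups of the contrast (-1.71). The cause was not tested.

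The number of the 7 genes called at day 43 against day 0 on the standard diet, 0 in the main model, was 5 without the ribosomal term, 6 with the RNA integrity number, 4 with only the groups of the contrast and 1 with DESeq2. On GW3965 at day 43, 1 in the main model, it was 5, 6, 5 and 2 in the same order. At day 22 on GW3965, 1 in the main model, it was 2, 2, 4 and 2. From day 22 to 43 on the standard diet, 0 in the main model, it was 2, 2 and 1 with the first 3 settings, and from day 43 to 70 it was 1, 1 and 1. On GW3965 it was 1 from day 22 to 43 with the RNA integrity number, with only the groups of the contrast and with DESeq2, and from day 43 to 70 it was 1, 2 and 1 with the first 3 settings. For the diets at day 22 DESeq2 called 1. With each sample left out in turn, it ranged from 1 to 3 at day 22 on the standard diet (1 without day 22 replicate 3 or day 0 replicate 1), stayed at 0 at day 43 on GW3965, and ranged from 0 to 1 for the diets at day 43 (1 without standard diet replicate 2). At day 70 against day 0 it was 3 to 5 on the standard diet and 3 to 4 on GW3965.

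The replicate numbers did not pair the samples: same-numbered samples of the diets had a mean correlation of deviations of -0.066 over 13 pairs, with 2 pairs above 0.1. With the replicate block the number called at day 43 on GW3965 was 0, and the other counts of called genes stayed within 1.5 times the main count. With shares of estimated counts, an alternative chosen after seeing the data, the Il33 and Il1rn start sites were compared again, but the smallest P values that 3 samples allow lie above the threshold, so these P values say nothing of stability. Leaving out the standard diet sample with the RNA integrity number of 2.6 changed no count of called genes. The counts of its comparisons were 0 in the main model, so this says nothing of stability. With single samples left out, the log2 fold change of Sox9 at day 43 on the standard diet ran from -1.28 to 1.26. Standard errors of the 7 genes reached 1.65 in log2 at day 43 with the ribosomal term, against 0.36 to 0.7 at day 70 on the standard diet with as many samples. The 3 genes named as nearest to each gene shared 0 to 3 names with the 3 nearest under another prior count or after correction for the ribosomal percentage.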
